A study of Mus musculus with 20 samples.

Results

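Proliferation genes were followed in ribosome-bound RNA of epididymal adipose tissue (epiAT) adipocytes from mice on chow, on a high-fat diet (HFD) and after weight loss (WL). The 10 genes were Mki67, Top2a, Cdk1, Ccnb1, Ccnb2, Ccna2, Birc5, Bub1, Cdc20 and Rrm2. They were chosen by symbol, as the rows of the count table whose Ensembl identifier carries that symbol. All 10 were found among 46078 genes, and all 10 were among the 21464 genes with enough counts to be tested. Adipocyte ribosomes had been pulled down by their GFP tag and the bound RNA sequenced (translating ribosome affinity purification, TRAP–seq) in 20 AdipoERCre x NuTRAP mice, each sample being a separate mouse.

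Every mouse carried both transgenes and had received 2 doses of tamoxifen at 4 to 5 weeks of age, followed by a washout of 2 weeks. In the short arm, C mice were 18 weeks old on chow, H mice were 18 weeks old after 12 weeks of HFD, CC_s mice were 26 weeks old on chow, and HC mice, also 26 weeks old, had 12 weeks of HFD and then 8 weeks of chow, 3 mice per group. In the long arm, CC_l mice were 31 weeks old on chow, HH mice, also 31 weeks old, had 25 weeks of HFD, CCC mice were 39 weeks old on chow, and HHC mice, also 39 weeks old, had 25 weeks of HFD and then 8 weeks of chow, 2 mice per group. Each group with a history of HFD was set against the chow control of the same age (H with C, HC with CC_s, HH with CC_l, HHC with CCC), to ask how expression stood in obesity and after WL. Cre was driven by the Adipoq promoter and switched on by tamoxifen before the diets began, so that the tag marks cells that expressed Adipoq at that time, and an adipocyte formed later from an untagged precursor carries no tag.

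A dividing cell copies its DNA in S phase, condenses and separates its chromosomes in mitosis, and then splits. Many of the genes needed for these steps are transcribed only in cycling cells, in waves set by E2F factors at the entry into S phase and by the MuvB, B-Myb and FoxM1 factors before mitosis, so that their messenger RNA is a common measure of proliferation. Mature adipocytes are regarded as post-mitotic, whereas precursors, macrophages, endothelial cells and lymphocytes of adipose tissue can divide.

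By role, Mki67 (ENSMUSG00000031004, chr7:135689784-135716361, minus strand) encodes the Ki-67 antigen that coats mitotic chromosomes and is the usual proliferation marker, and Top2a (ENSMUSG00000020914, chr11:98992943-99024189, minus strand) encodes topoisomerase II alpha, which untangles DNA. Rrm2 (ENSMUSG00000020649, chr12:24708241-24714146, plus strand) encodes the small subunit of ribonucleotide reductase, which makes the nucleotides for DNA synthesis. Cdk1 (ENSMUSG00000019942, chr10:69335146-69352938, minus strand) encodes the kinase that drives mitosis, and Ccna2 (ENSMUSG00000027715, chr3:36564865-36572150, minus strand), Ccnb1 (ENSMUSG00000041431, chr13:100778650-100786570, minus strand) and Ccnb2 (ENSMUSG00000032218, chr9:70407692-70421547, minus strand) encode cyclins that partner it. Bub1 (ENSMUSG00000027379, chr2:127801122-127831865, minus strand) encodes a kinase of the spindle checkpoint. Cdc20 (ENSMUSG00000006398, chr4:118432901-118437352, minus strand) encodes the activator of the ubiquitin ligase that ends metaphase. Birc5 (ENSMUSG00000017716, chr11:117849251-117855743, plus strand) encodes survivin, a part of the chromosomal passenger complex. Coordinates are those of GENCODE vM21 on mouse genome build GRCm38, which is also called mm10.

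Because the members moved together in several groups below, their promoters were searched for letters known from cell cycle genes. RefSeq promoters on GRCm38.p6, each reaching from 250 bases before to 50 after a start site, were matched for 9 of the 10 genes, all but Ccna2. Both strands were searched for TTTGAA (the cell cycle homology region that the MuvB complex recognizes), CCAAT (the NF-Y box) and TTTGGCGC or TTTCCCGC (E2F sites). TTTGAA was present in 5 of the 9 promoters (55.6%) and in 17.9% of 32817 mouse promoters, and CCAAT in 8 of 9 (88.9%) and in 37.4% of them. Neither E2F word was present in the 9 windows, and 1.56% of all promoters held one. Among 65 promoters of other proliferation genes, described further below, the shares were 43.1% for TTTGAA, 69.2% for CCAAT and 16.9% for the E2F words. The stretches of 7 members that hold the matches are shown 5′ to 3′ on the gene's strand to let the arrangement be seen, with TTTGAA and CCAAT, or their reverse complements TTCAAA and ATTGG, in capitals.
Mki67 promoter, chr7:135716462-135716577, minus strand: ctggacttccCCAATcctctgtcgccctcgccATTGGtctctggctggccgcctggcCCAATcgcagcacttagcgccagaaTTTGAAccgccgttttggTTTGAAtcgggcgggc
Top2a promoter, chr11:99024197-99024426, minus strand: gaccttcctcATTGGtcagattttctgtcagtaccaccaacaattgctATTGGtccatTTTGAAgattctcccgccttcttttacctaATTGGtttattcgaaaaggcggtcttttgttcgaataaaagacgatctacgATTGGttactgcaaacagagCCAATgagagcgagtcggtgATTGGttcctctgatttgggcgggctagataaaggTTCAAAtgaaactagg
Cdk1 promoter, chr10:69352912-69353130, minus strand: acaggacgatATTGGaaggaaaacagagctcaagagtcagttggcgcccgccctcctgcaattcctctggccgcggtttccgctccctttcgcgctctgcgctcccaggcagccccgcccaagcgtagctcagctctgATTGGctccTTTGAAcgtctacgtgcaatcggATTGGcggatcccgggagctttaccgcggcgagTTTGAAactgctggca
Ccnb2 promoter, chr9:70421535-70421731, minus strand: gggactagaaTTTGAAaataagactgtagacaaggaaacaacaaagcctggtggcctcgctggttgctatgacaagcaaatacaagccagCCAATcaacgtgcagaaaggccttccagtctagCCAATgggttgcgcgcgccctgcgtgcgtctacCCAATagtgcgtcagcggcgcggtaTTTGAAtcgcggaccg
Cdc20 promoter, chr4:118437337-118437406, minus strand: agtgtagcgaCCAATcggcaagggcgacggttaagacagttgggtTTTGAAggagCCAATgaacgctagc
Ccnb1 promoter, chr13:100786539-100786595, minus strand: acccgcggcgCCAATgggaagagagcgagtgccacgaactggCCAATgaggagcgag
Bub1 promoter, chr2:127831887-127831937, minus strand: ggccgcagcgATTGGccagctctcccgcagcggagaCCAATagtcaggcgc

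Top2a, with 6 CCAAT and 2 TTTGAA matches, and Mki67, with 3 and 2, held both words, as did Cdk1, Ccnb2 and Cdc20, whereas Ccnb1 and Bub1 held CCAAT only, Rrm2 had a single CCAAT, and Birc5 had no match in its window. No 2 matches overlapped. A match is a description of the letters and not a binding site.

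Depth was 10710277 to 36738954 counts per library, so that 3 counts, used as the limit for a count of 0, stood at 0.0817 to 0.280 CPM (each count divided by the total of its library and scaled to 1e6). The labelled cell type was checked first. The adipocyte markers Adipoq, which encodes adiponectin, and Plin1, which encodes perilipin 1, were detected in every mouse, at 653.6 to 7620 CPM and at 97.1 to 479.1 CPM. Markers of other cells were also present: summed macrophage markers (9 genes) ranged from 121.3 to 2875 CPM and summed endothelial markers (6 genes) from 82.7 to 1831 CPM. In 2 libraries RNA of male germ cells stood far above the rest. Summed spermatid markers (9 genes) were at 4125 CPM in CC_l replicate 1 and 792.5 CPM in HC replicate 3. In the other 18 libraries they were lower but not absent, at most 178.7 CPM (C replicate 1), followed by 80.4 CPM in HH replicate 2. Sycp1, a component of the meiotic synaptonemal complex, was at 72.9 and 38.2 CPM in CC_l replicate 1 and HC replicate 3 and at most 1.88 CPM elsewhere. Sycp3, of the same spermatocyte list, did not follow, at 23.95 and 29.2 CPM there and up to 530 CPM elsewhere (HHC replicate 2). Its exons overlap those of Chpt1 on the opposite strand over 52.2% of their bases. The other 9 spermatocyte markers summed to 281.2 and 173.9 CPM there and to at most 16.8 CPM elsewhere. Germ cells divide, so results that involve CC_l or HC are given with and without CC_l replicate 1 and HC replicate 3.

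The members were found at low levels in all chow-fed mice except CC_l replicate 1 and at high levels in all mice on HFD. The summed CPM of the 10 genes was 6.85, 22.5 and 26.4 in the 3 C mice and 106.6, 145.2 and 227.0 in the 3 H mice. In the later short-arm groups it was 10.4, 10.8 and 30.9 in CC_s and 12.1, 16.6 and 101.0 in HC. In the long arm the sum was 15.7 and 135.5 in CC_l, 137.9 and 148.9 in HH, 24.1 and 30.6 in CCC, and 20.8 and 130.1 in HHC. Thus H and HH were high in every mouse, C, CC_s and CCC low in every mouse, and HC, CC_l and HHC each held a single mouse at or near the level of mice on HFD. That mouse was HC replicate 3 and CC_l replicate 1, the libraries with the most germ-cell RNA, and HHC replicate 1, in which summed spermatid markers were 13.8 CPM. Group means ran from H (160 ± 61.5, SD, n = 3) and HH (143 ± 7.75, n = 2) through CC_l (75.6 ± 84.7, n = 2), HHC (75.5 ± 77.2, n = 2) and HC (43.2 ± 50.0, n = 3) to CCC (27.4 ± 4.62, n = 2), C (18.6 ± 10.3, n = 3) and CC_s (17.4 ± 11.7, n = 3). Neighbours in this order overlapped mouse by mouse in all cases except HH and CC_l, the sum of HH exceeding CC_l replicate 1 by a small margin. Of the 10 members, 5 peaked in H replicate 2, 4 in CC_l replicate 1 and Rrm2 in HH replicate 1.

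**Figure D1:**
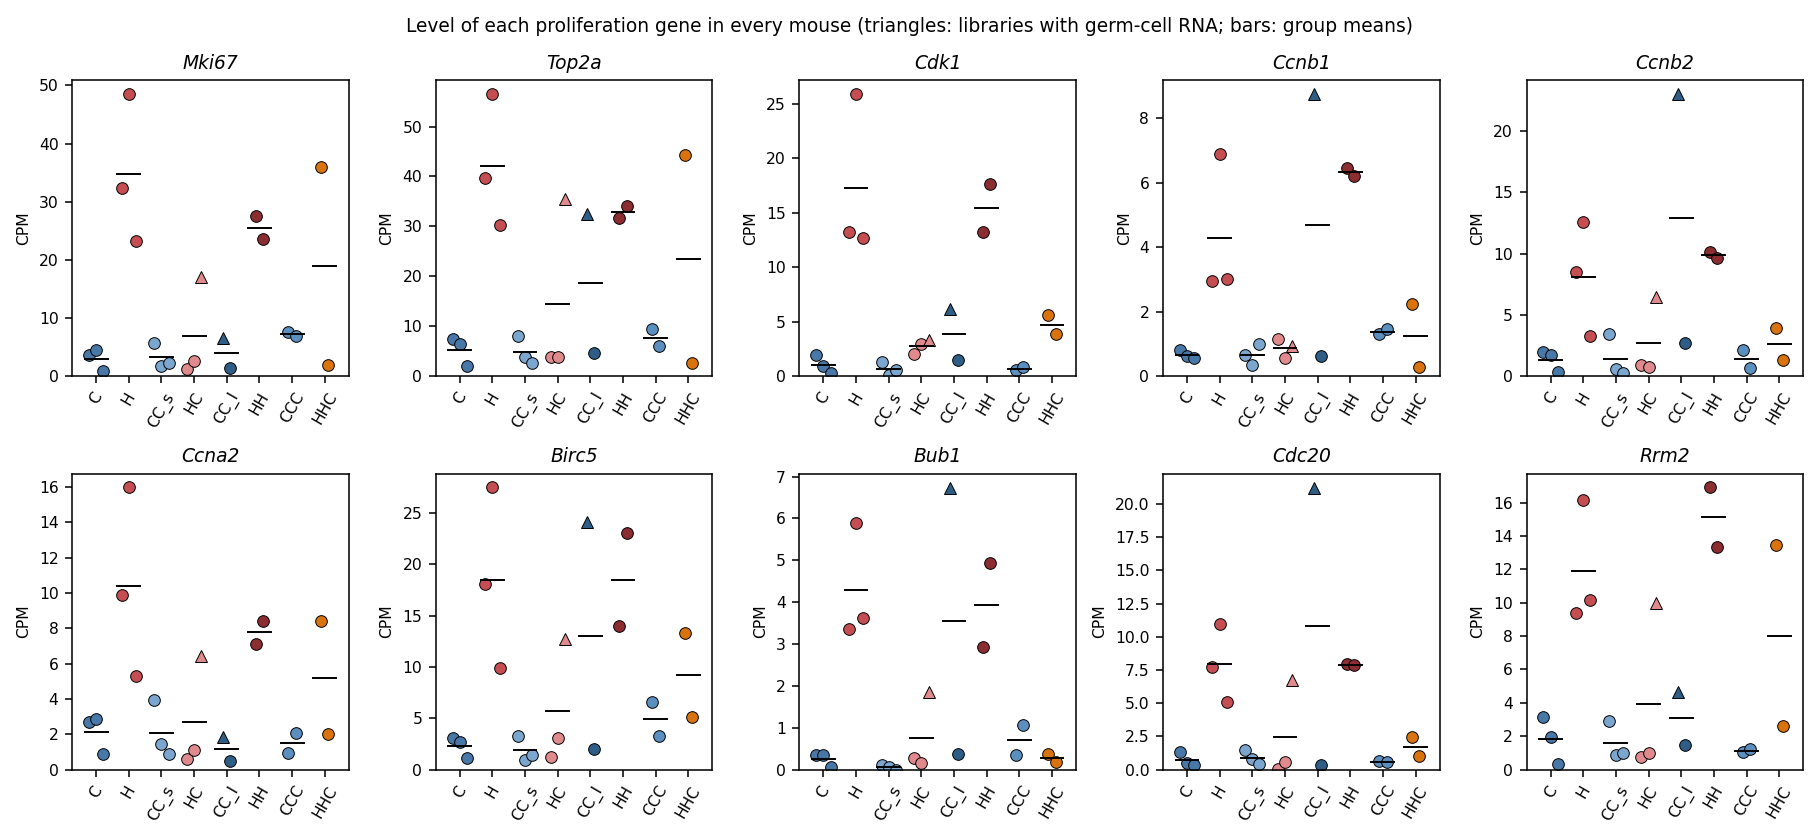
CPM (linear axis from 0) of each of the 10 genes in every mouse of the 8 groups; each point is a mouse, bars are group means, and triangles are CC_l replicate 1 and HC replicate 3, the libraries with the most germ-cell RNA. All 3 H mice stood above all 3 C mice for every gene, and single mice carried the means of HC, CC_l and HHC for most genes.

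Per kilobase of exon, which allows levels to be compared between genes, the mean over all 20 libraries was highest for Ccnb2 (3.08 CPM per kb) and Birc5 (2.59), followed by Cdc20 (2.09), Top2a (2.03) and Rrm2 (2.03). Mki67 (1.27), Cdk1 (1.16) and Ccna2 (1.02) were lower, and Ccnb1 (0.555) and Bub1 (0.380) lowest on this scale. The first places rested in part on CC_l replicate 1: in H, Birc5 (5.44 ± 2.59 CPM per kb, SD, n = 3), Ccnb2 (5.31 ± 3.04) and Top2a (4.68 ± 1.48) differed by less than the spread between mice.

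After 12 weeks of HFD every member was higher than in chow-fed mice, and for each of the 10 genes the lowest H mouse stood above the highest C mouse. A gene was called when its nominal p was under 0.01 and its absolute log2 fold change at least 1 in edgeR's quasi-likelihood test. By this rule 7 of 10 members rose and none fell, where 3.57% of all genes tested rose and 2.92% fell. Groups that did not overlap with H higher were seen for 10 of 10 members and for 17.2% of all genes. The median log2 fold change of the members was 2.93, and that of all genes tested was -0.15. With p-values adjusted over all genes, Cdk1 alone passed 0.05, as did 2.12% of all genes.

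Cdk1 showed the strongest evidence of the 10. It stood at 0.274, 0.920 and 1.98 CPM in C mice and at 12.7, 13.2 and 25.9 CPM in H mice. Even the lowest H mouse was several times the highest C mouse, and the log2 fold change was 3.97 ± 0.77 (SE; adjusted p = 0.0136, edgeR). Its cyclin partners were higher in H as well. Ccnb1 was at 0.548 to 0.817 CPM in C and 2.96 to 6.89 CPM in H, a log2 fold change of 2.52 ± 0.87, which passed the rule narrowly with a nominal p of 0.0099. Ccnb2 was at 0.343, 1.73 and 1.98 CPM in C and at 3.31, 8.46 and 12.6 CPM in H (log2 fold change 2.54 ± 1.03). Ccna2 was at 0.891, 2.68 and 2.88 CPM in C and at 5.32, 9.90 and 16.0 CPM in H (2.199 ± 0.81). For both of these cyclins the groups were apart, but the nominal p (0.0242 and 0.0144, edgeR) missed 0.01.

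Of the genes that act on DNA and chromosomes, Mki67 was at 0.891, 3.62 and 4.49 CPM in C and at 23.3, 32.4 and 48.5 CPM in H. All H mice were far above all C mice, with group means of 34.7 ± 12.8 and 3.00 ± 1.88 CPM (SD, n = 3 each) and a log2 fold change of 3.49 ± 0.92 (SE). Top2a, at 2.06, 6.44 and 7.47 CPM in C, reached 30.3, 39.8 and 56.6 CPM in H (log2 fold change 2.92 ± 0.88). Rrm2 was at 0.343, 1.96 and 3.15 CPM in C and at 9.37, 10.1 and 16.2 CPM in H (2.68 ± 0.87). The 3 genes passed the rule of nominal p and fold, with adjusted p of 0.0593, 0.0956 and 0.121 in edgeR.

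Among the genes of chromosome segregation, Bub1 went from near the limit of detection, 0.0685, 0.345 and 0.350 CPM in C, to 3.37, 3.61 and 5.90 CPM in H. Its log2 fold change of 4.02 ± 1.13 was the highest of the 10, and the C values rested on few counts. Birc5 was at 1.10, 2.65 and 3.04 CPM in C and at 9.94, 18.1 and 27.5 CPM in H, a log2 fold change of 2.94 ± 0.82, and both genes passed the rule (adjusted p = 0.0732 and 0.0700, edgeR). Cdc20 stood at 0.343, 0.460 and 1.28 CPM in C and at 5.12, 7.72 and 10.99 CPM in H. Here too the groups were apart, but the log2 fold change of 3.40 ± 1.23 had a nominal p of 0.0130 in edgeR and was not called. With DESeq2, 8 members were called, Cdc20 being added, and the same 8 had an adjusted p under 0.05. Called members fell to 2 without C replicate 3, Mki67 and Cdk1, and to 4 without C replicate 2 or H replicate 2, Mki67, Cdk1, Birc5 and Bub1 in both cases. The log2 fold change stayed above 0 for all 10 members in each of the 6 fits that left out a C or an H mouse.

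**Figure D2:**
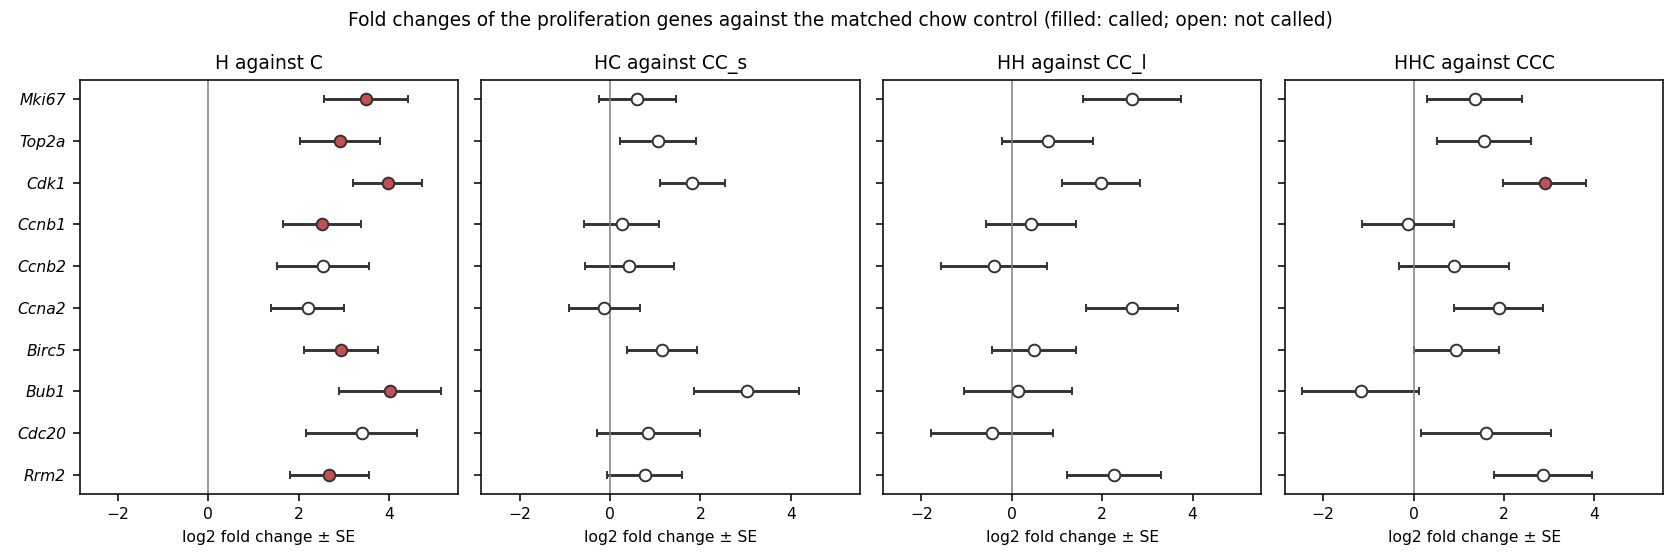
Log2 fold change (horizontal axis) of each of the 10 genes against the matched chow control in the 4 comparisons; points are edgeR estimates from all mice, bars are standard errors, and filled points passed the rule of nominal p under 0.01 and absolute log2 fold change of at least 1. The H panel has 7 filled points, the HC and HH panels none, and the HHC panel 1, Cdk1.

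After WL from 12 weeks of HFD no member was called in HC against CC_s, where 1.57% of all genes rose and 0.172% fell. At a nominal p under 0.05 in edgeR, 2 members passed (Cdk1 and Bub1), as did 1866 of 21464 genes tested. DESeq2 also called no member, and with adjusted p no gene of the table passed (0%). The median log2 fold change of the members was 0.81, with 9 of 10 above 0, beside a median of 0.27 over all genes. Cdk1 was at 0.138, 0.546 and 1.34 CPM in CC_s and at 2.01, 2.96 and 3.29 CPM in HC. The groups did not overlap, which was so for 2 members here and for 9.99% of all genes. The log2 fold change of Cdk1 was 1.82 ± 0.72 (SE), with an adjusted p of 0.544 in edgeR. Without HC replicate 3, the germ-cell mouse and the highest HC value, it was 1.89. Every HC mouse was nonetheless far below every H mouse for Cdk1 in CPM.

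Bub1 had 0, 2 and 2 counts in CC_s mice (0, 0.0689 and 0.112 CPM) and stood at 0.144, 0.272 and 1.84 CPM in HC, the highest value coming from replicate 3. The log2 fold change of 3.03 ± 1.16 rests on these few counts, and without HC replicate 3 it was 1.73. The other members followed the same single mouse. Mki67 was at 1.72, 2.29 and 5.69 CPM in CC_s and at 1.25, 2.60 and 17.1 CPM in HC. Top2a was at 2.62, 3.79 and 8.04 CPM in CC_s and at 3.84, 3.89 and 35.4 CPM in HC. In both genes HC replicates 1 and 2 lay below the highest CC_s mouse and replicate 3 above it. The same held for Birc5 (12.8 CPM in replicate 3), Cdc20 (6.77), Rrm2 (10.00), Ccna2 (6.45) and Ccnb2 (6.45). Ccnb1 was the exception, at 0.577 to 1.14 CPM in HC and 0.345 to 0.983 CPM in CC_s, with replicate 3 between the others. Without HC replicate 3 the median log2 fold change of the members was -0.54 and 4 of 10 were above 0, Mki67 being at -0.77, Top2a at -0.31 and Cdc20 at -1.59, and none of the 10 was called.

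After 25 weeks of HFD the members were high and even in both HH mice, and the comparison turned on the control. Mki67 was at 23.6 and 27.5 CPM in HH, and at 1.37 and 6.50 CPM in CC_l. Ccna2 was at 7.14 and 8.40 CPM in HH, and at 0.498 and 1.86 CPM in CC_l. For these genes, for Cdk1 (13.3 and 17.7 against 1.49 and 6.17 CPM) and for Rrm2 (13.3 and 16.9 against 1.49 and 4.64 CPM) both HH mice stood above both CC_l mice. Such a separation was seen for 4 of 10 members, a share not far from the 29.3% of all genes. No member was called by nominal p and fold, where 4.92% of all genes rose and 1.88% fell, and none passed an adjusted p of 0.05, where 2.07% did. At a nominal p under 0.05 in edgeR the same 4 genes passed, as did 3732 of 21464 genes tested. The log2 fold changes were 2.66 for Mki67, 2.66 for Ccna2, 2.25 for Rrm2 and 1.97 for Cdk1, and DESeq2 called no member.

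For the other 6 genes CC_l replicate 1 stood among or above the HH mice. Cdc20 was at 7.90 and 7.92 CPM in HH, at 0.373 CPM in CC_l replicate 2 and at 21.2 CPM in CC_l replicate 1. Ccnb2 was at 9.68 and 10.1 CPM in HH, and at 2.74 and 23.0 CPM in CC_l replicates 2 and 1. The germ-cell mouse was thus more than 2 times as high as the HFD mice in both genes, and their fold changes came out below 0 (-0.45 and -0.39 on the log2 scale). Ccnb1 (6.22 and 6.45 CPM in HH, 0.623 and 8.76 in CC_l) and Bub1 (2.93 and 4.94 CPM in HH, 0.373 and 6.73 in CC_l) also peaked in that mouse. Top2a (31.7 and 34.1 CPM in HH, 4.73 and 32.5 in CC_l) and Birc5 (14.0 and 23.0 CPM in HH, 1.99 and 24.1 in CC_l) were at about the level of HH there. The median log2 fold change of the members was 0.64, beside -0.23 over all genes. Without CC_l replicate 1 it was 3.18, with 10 of 10 above 0, from 1.68 for Ccnb2 to 4.21 for Cdc20, but a single control mouse was then left, and no member was called, 7 having a nominal p under 0.05. Without CC_l replicate 2 the median was -0.15. When HC replicate 3 was left out as well, 4 members were called in edgeR, Mki67, Ccna2, Birc5 and Cdc20, with a median of 3.17, the lone CC_l mouse being assumed to vary like the other groups.

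After WL from 25 weeks of HFD the 2 HHC mice disagreed. Mki67 was at 36.0 CPM in HHC replicate 1 and 1.87 CPM in replicate 2, and at 6.98 and 7.64 CPM in CCC. Top2a was at 44.3 and 2.61 CPM in HHC, and at 6.04 and 9.40 CPM in CCC. The first HHC mouse was as high as mice on HFD in both genes, and the second below both of its controls. Ccna2, Birc5 and Ccnb2 were likewise above both CCC mice in replicate 1 (8.40, 13.4 and 3.92 CPM) and within their range in replicate 2 (2.01, 5.13 and 1.31 CPM). Ccnb1 was at 0.280 and 2.24 CPM in HHC and 1.29 and 1.48 CPM in CCC. Bub1 did not share the high level of replicate 1, at 0.187 and 0.373 CPM in HHC, and at 0.353 and 1.07 CPM in CCC.

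Cdk1 was the single member called in this comparison, where 0.447% of all genes rose and 2.67% fell. It was at 3.83 and 5.60 CPM in HHC, and at 0.588 and 0.805 CPM in CCC. Both HHC mice were above both controls. The log2 fold change of Cdk1 was 2.90 ± 0.92 (SE), with a nominal p of 0.0057 and an adjusted p of 0.285 in edgeR. No gene of the table passed an adjusted p of 0.05 (0%). Rrm2 (2.61 and 13.5 CPM in HHC, 1.06 and 1.21 in CCC) and Cdc20 (1.03 and 2.43 CPM in HHC, 0.537 and 0.647 in CCC) were also apart, making 3 of 10 members beside 6.49% of all genes. The edgeR nominal p of Rrm2 was 0.0171. The members' median log2 fold change was 1.45, beside -0.06 over all genes, with 8 above 0. Without HHC replicate 1 the median was 0.25, with 6 above 0. Cdk1 was then at 2.80 with a nominal p of 0.0146 in edgeR and no longer called, while Mki67 and Top2a were at -1.65 and -1.27. Without HHC replicate 2, Rrm2 was called in place of Cdk1, with a log2 fold change of 3.54. Without either CCC mouse no member was called. Cdk1 was therefore the member whose HC and HHC mice each stood above their own controls in every case. It was singled out after the values of all 10 were seen. Such a separation was found for 9.99% of all genes in HC and 6.49% in HHC, and the share with both was not counted. Neither difference of Cdk1 passed the adjusted threshold.

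**Figure D3:**
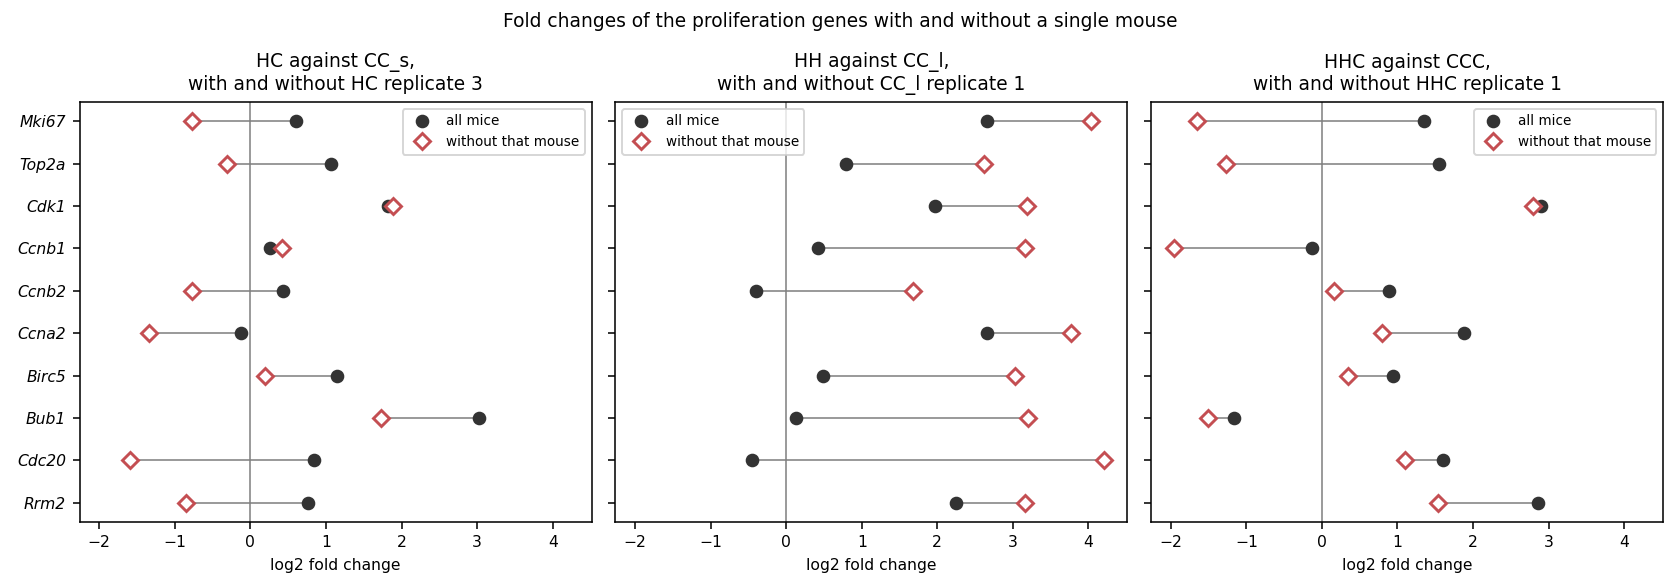
Log2 fold change (horizontal axis) of each of the 10 genes with all mice (filled circles) and after leaving out 1 mouse (open diamonds), for HC, HH and HHC against their chow controls; estimates are from edgeR and no error is drawn. Leaving out HC replicate 3 moved 5 genes that were above 0 to below 0, leaving out CC_l replicate 1 moved all 10 genes to the right, and Cdk1 moved little without HC replicate 3 or HHC replicate 1.

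The differences between effects were tested as interaction terms. The H effect exceeded the HC effect in 10 of 10 members, with a median difference of 2.13 on the log2 scale, but none passed an adjusted p of 0.05 in edgeR (0% of all genes did). At a nominal p under 0.05, 2 members passed, Mki67 (2.89 ± 1.22) and Cdk1 (2.15 ± 1.00). Without HC replicate 3 the median difference was 3.27 and 7 members had a nominal p under 0.05, again with none adjusted. For HH against HHC the median difference was -0.53, no member passed at either level, and 0.815% of all genes had an adjusted p under 0.05. The direction of this median was not stable: it was 2.00 without CC_l replicate 1, 1.20 without HHC replicate 1 and 0.40 with a replicate block. For H against HH the median was 2.11, with 2 members at a nominal p under 0.05 (Bub1 and Cdc20) and none adjusted, as no gene of the table did (0%). Without CC_l replicate 1 that median was -0.28, so that the difference between short and long HFD rested on this control mouse. Library names begin with S086 in the short arm and S087 in the long arm, and whatever these names mark cannot be told apart from the length of the diet in this contrast. DESeq2 also found no member in any of the 3 tests, with 2, 0 and 2 members at a nominal p under 0.05.

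The makeup of the members differed in the germ-cell library of the long arm. In CC_l replicate 1 Mki67 made up 4.80% of the summed member CPM, below the 8.73% to 29.0% of the other 19 libraries, and Ccna2 made up 1.37% (3.07% to 13.4% elsewhere). Rrm2 was also lowest there (3.43%, with 3.46% as the next). In the other direction Cdc20 took 15.7% (0.449% to 7.64% elsewhere) and Bub1 4.97% (0% to 4.46% elsewhere). The shares of the other 5 genes lay within the range of the other libraries. In HC replicate 3 the makeup was within the range of the other libraries for 8 of 10 genes, Top2a (35.1%) being marginally highest and Ccnb1 (0.912%) lowest. In HHC replicate 1 it was within the range for all 10.

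Markers of cell types other than adipocytes moved with the members in several groups. The members' RNA is measured in bulk, and fewer cells of a type and less RNA per cell cannot be told apart. Summed macrophage markers were 404.8 to 1772 CPM in H and 121.3 to 307.5 CPM in C. Of these, 6 of 9 genes were called higher, where 3.57% of all genes rose. The macrophage sum was 1818 and 2875 CPM in HH, and 164.8 and 194.9 CPM in CC_l. There 9 of 9 were called higher, where 4.92% of all genes rose. Cd68, a lysosomal protein of macrophages, was at 32.9 to 326.1 CPM in H and 6.72 to 12.9 CPM in C. Trem2, a receptor of lipid-associated macrophages, was at 15.1 to 182.8 CPM in H and 2.06 to 10.6 CPM in C. Summed endothelial markers were 1150 to 1831 CPM in H and 181.7 to 628.2 CPM in C, with 4 of 6 called higher, and Pecam1, an endothelial adhesion molecule, was at 384.5 to 650.7 CPM in H and 36.9 to 203.9 CPM in C. Lipid-associated macrophage markers had 5 of 6 genes called higher in H and 2 of 6 in HH. Adipocyte progenitor markers summed to 970.3 to 2835 CPM in H and 456.7 to 1548 CPM in C, with 0 of 6 called by edgeR. At a nominal p under 0.05 in edgeR there were 2 progenitor genes, beside 3665 of 21464 genes tested. They were of opposite direction: Ly6a at 1.43 and Pi16 at -1.70 on the log2 scale. In HH the progenitor markers summed to 3198 and 4608 CPM and in CC_l to 427.1 and 555.5 CPM, with 4 of 6 called higher. Mesothelial markers went the other way in H, with 2 of 5 called lower, where 2.92% of all genes fell. Summed endothelial markers were 785.6 and 1457 CPM in HH, and 139.6 and 146.5 CPM in CC_l, with 6 of 6 called higher. Of the 8 adipocyte markers, 7 were below both CC_l mice in both HH mice, as were 5809 of 21464 genes tested. None of the 7 was called by edgeR and none had a nominal p under 0.05. In H against C 1 of the 8, Lep, was called higher. The part of these cells in the members' levels was not tested.

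Macrophage markers and members differed in some groups, and whether they are linked was not tested. In HC against CC_s no member was called. There 5 of 9 macrophage and 4 of 6 lipid-associated macrophage markers were called higher, where 1.57% of all genes rose. In HC replicate 3 the macrophage sum was 1233 CPM (235.5 and 329.4 in the other HC mice) and the endothelial sum 1008 CPM (132.3 and 285.5). The adipocyte sum was 18120 CPM (57050 and 63660). The lipid-associated macrophage sum was 1815 CPM (155.1 and 234.4) and the progenitor sum 2300 CPM (593.6 and 887.1). Mesothelial (154.2 CPM) and T, B and NK cell sums (39.2 CPM) were also the highest of the HC mice. Epididymal markers were not, at 7.50 CPM there and 96.2 CPM in HC replicate 2. Markers of most of the other cell types were thus high in that library along with germ-cell markers. In CC_l replicate 1 the macrophage sum (164.8 CPM) was no higher than in replicate 2, and outside the germ-cell lists no list was above 2 times its level in replicate 2. In HHC replicate 1 the macrophage sum was 1202 CPM, against 284.4 CPM in replicate 2, and summed T, B and NK cell markers (8 genes) reached 129.0 CPM, above the 2.34 to 54.6 CPM of all other libraries. Cd3e, a chain of the T cell receptor complex, was at 22.8 CPM there and at most 3.29 CPM elsewhere, with no count in CC_s replicate 1, while endothelial markers were low in both HHC mice (82.7 and 85.2 CPM). In CCC the macrophage sum was 405.0 and 671.5 CPM, and in H replicate 3 it was 404.8 CPM. The endothelial sum was 236.8 and 600.7 CPM in CCC and 1503 CPM in that H mouse. Members stood at 24.1 to 30.6 CPM in CCC and 106.6 CPM in that H mouse. Epididymal markers stood at 511.8 and 1801 CPM in H replicates 1 and 2, 144.6 CPM in H replicate 3 and 1950 CPM in C replicate 1. In C replicate 1 Lcn8 was at 0.23 and Lcn9 at 0.47 CPM, so that its high sum came from other genes of the list. Any link of these markers to the members was not tested. Lcn8, a lipocalin of the epididymis, was at 249.9 and 680.6 CPM in H replicates 1 and 2 and at most 3.91 CPM in any other library.

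**Figure D4:**
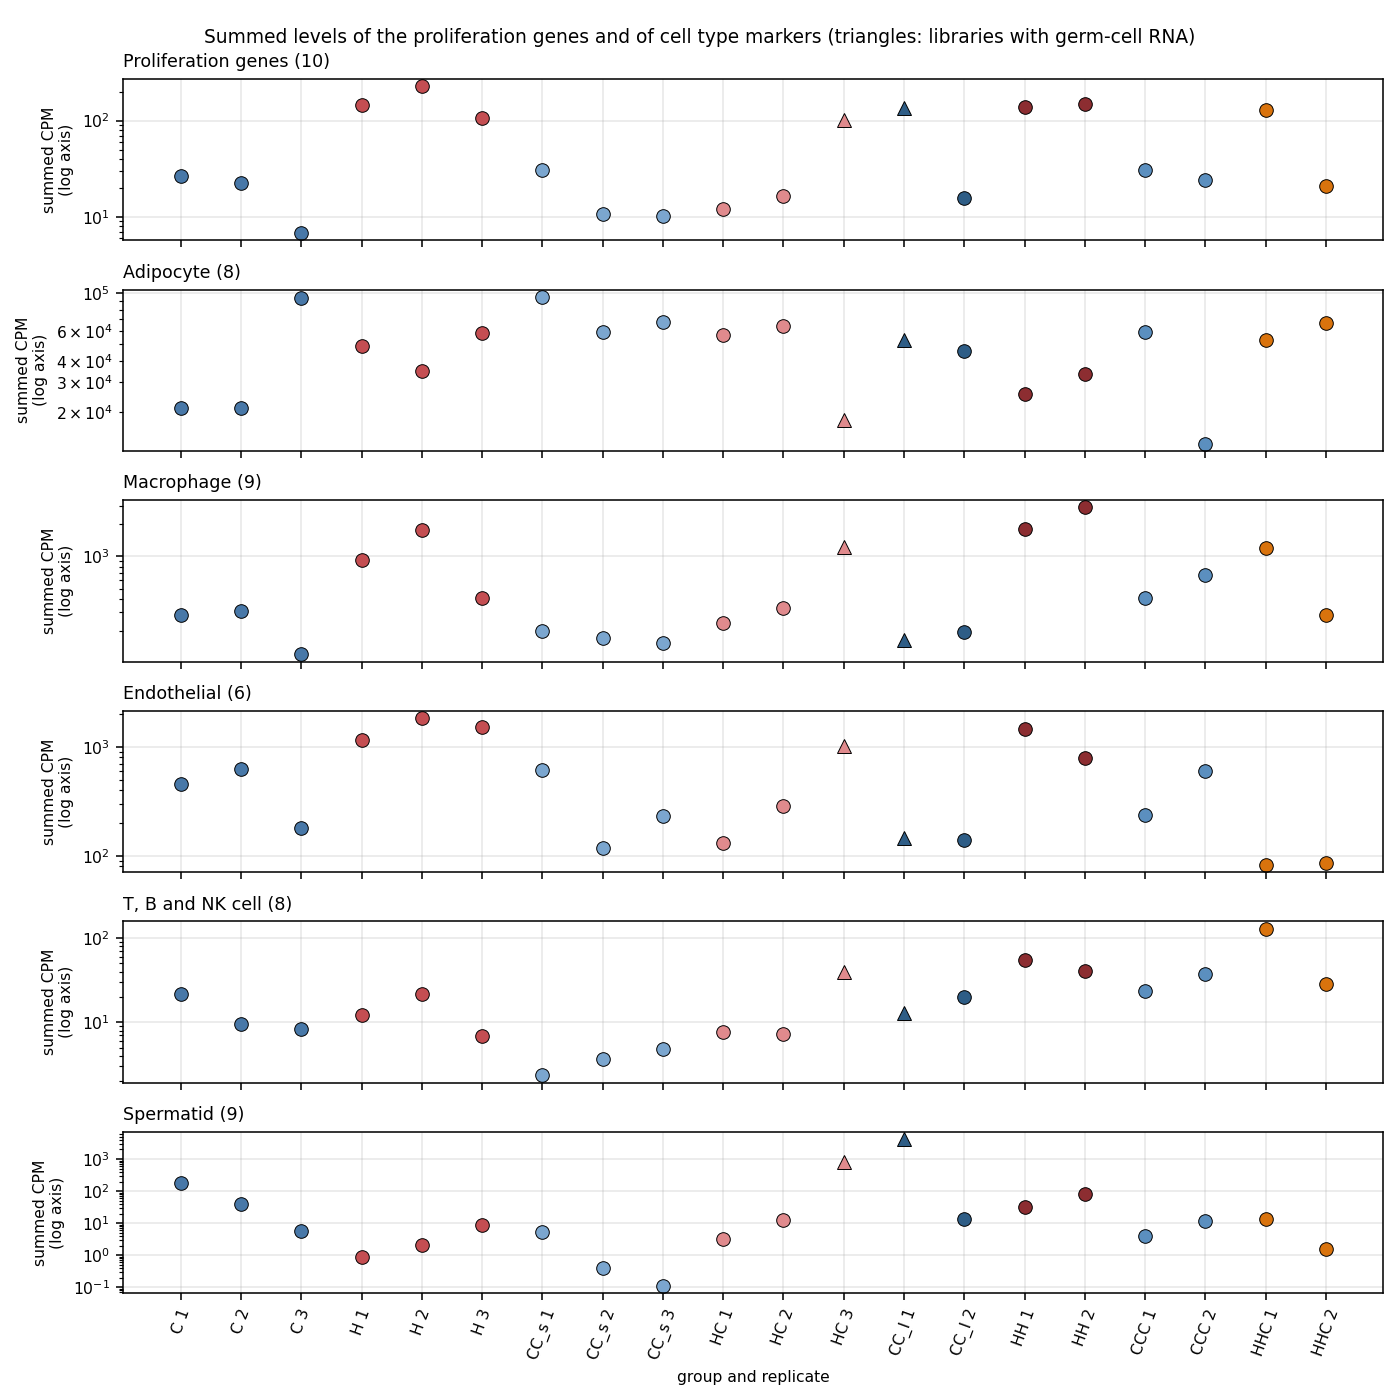
Summed CPM (log axis) of the 10 proliferation genes and of 5 marker lists in each of the 20 mice, with the number of genes in brackets; each point is a mouse and triangles are CC_l replicate 1 and HC replicate 3. Members were above 100 CPM in the H and HH mice, HC replicate 3, CC_l replicate 1 and HHC replicate 1, where different marker lists were high.

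A wider set of 76 proliferation genes in 6 lists, all of them tested, was set beside the members. In H against C 12 of 76 rose and none fell, where 3.57% of all genes rose and 2.92% fell. The median log2 fold change was 1.40, beside -0.15 over all genes. All H mice stood above all C mice for 53 genes and below them for 1, where 17.2% of all genes had H apart and higher. Kinetochore and chromosome structure held 5 of its 12 genes called higher (median 2.39), including Spc25 of the Ndc80 complex and Ncaph of condensin. Mitotic degradation and Cdk partners held 2 of 8, Cks2, which binds Cdk1, and the ubiquitin-conjugating enzyme Ube2c. Spindle and cytokinesis held 2 of 11, the mitotic kinases and checkpoint 1 of 9 (Aurkb), the G1/S regulators 1 of 14 (Ccne1) and DNA replication 1 of 22 (Mcm6). The 4 with the highest fold among those called were Cks2, Hmmr, Tpx2 and Ncaph. Cks2 was at 0.115, 0.350 and 0.685 CPM in C and at 6.22, 8.96 and 10.2 CPM in H, with a log2 fold change of 4.10 ± 0.79 (adjusted p = 0.0130, edgeR). Hmmr, a hyaluronan receptor that also binds the spindle, was at 0, 0.467 and 0.690 CPM in C and at 2.61, 5.34 and 10.1 CPM in H (3.97 ± 1.25). Tpx2, a spindle assembly factor, had a log2 fold change of 3.47 ± 1.01 and Ncaph of 3.33 ± 1.07. Called genes numbered 12 with all mice, 4 without C replicate 1, 4 without H replicate 2, 7 without H replicate 1 and 9 to 11 without each of the others, and 19 with DESeq2.

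In HH against CC_l 5 of 76 rose, a share close to the 4.92% of all genes, and none fell. All 5 were in the DNA replication list of 22 genes, and whether the lists differ was not tested. They were Mcm6 (2.12), Mcm3 (1.89) and Mcm4 (1.87) of the replicative helicase, Tyms (1.63), which makes thymidylate, and Rrm1 (1.41), the large subunit that pairs with Rrm2, on the log2 scale. Mcm6 was at 28.2 and 33.2 CPM in HH, and at 5.57 and 7.60 CPM in CC_l, and Mcm4 at 19.3 and 23.0 CPM in HH and 4.41 and 6.35 CPM in CC_l. In each of the 5 genes both CC_l mice, the germ-cell mouse included, stood below both HH mice. Mcm4 and Mcm6 had an adjusted p under 0.05 in edgeR (0.0468 and 0.0403). The median log2 fold change was 1.15 for DNA replication, -0.37 for mitotic kinases and checkpoint and 0.21 for kinetochore and chromosome structure. Without CC_l replicate 1, the germ-cell mouse, these medians were 1.14, 2.69 and 2.51, with 1, 1 and 2 genes called. The median of mitotic degradation and Cdk partners likewise went from -0.47 to 1.06. The 5 calls became 2 without HH replicate 1 or CC_l replicate 2, 8 with DESeq2, and 7 of 76 with both germ-cell libraries left out.

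After WL, 1 of 76 rose in HC against CC_s (median 0.60), no more than the 1.57% of all genes that did, the G1 kinase Cdk6, which was at 22.9, 31.8 and 253.7 CPM in HC and 14.4 to 23.2 CPM in CC_s, the highest value again in replicate 3, and none was called without that mouse or without any of the CC_s mice. In HHC against CCC none rose and 2 of 76 fell, about the 2.67% of all genes, with a median of 0.58. None fell without CCC replicate 2 or HHC replicate 2, or with RLE normalization, only the compared groups or halved counts. Prim1, a subunit of DNA primase, was at 0.187 and 1.21 CPM in HHC, and at 3.88 and 5.23 CPM in CCC. Cdk2, the S phase kinase, was at 3.17 and 12.1 CPM in HHC, and at 17.4 and 51.9 CPM in CCC. Its exons overlap those of Pmel on the opposite strand over only 0.55% of their bases.

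**Figure D5:**
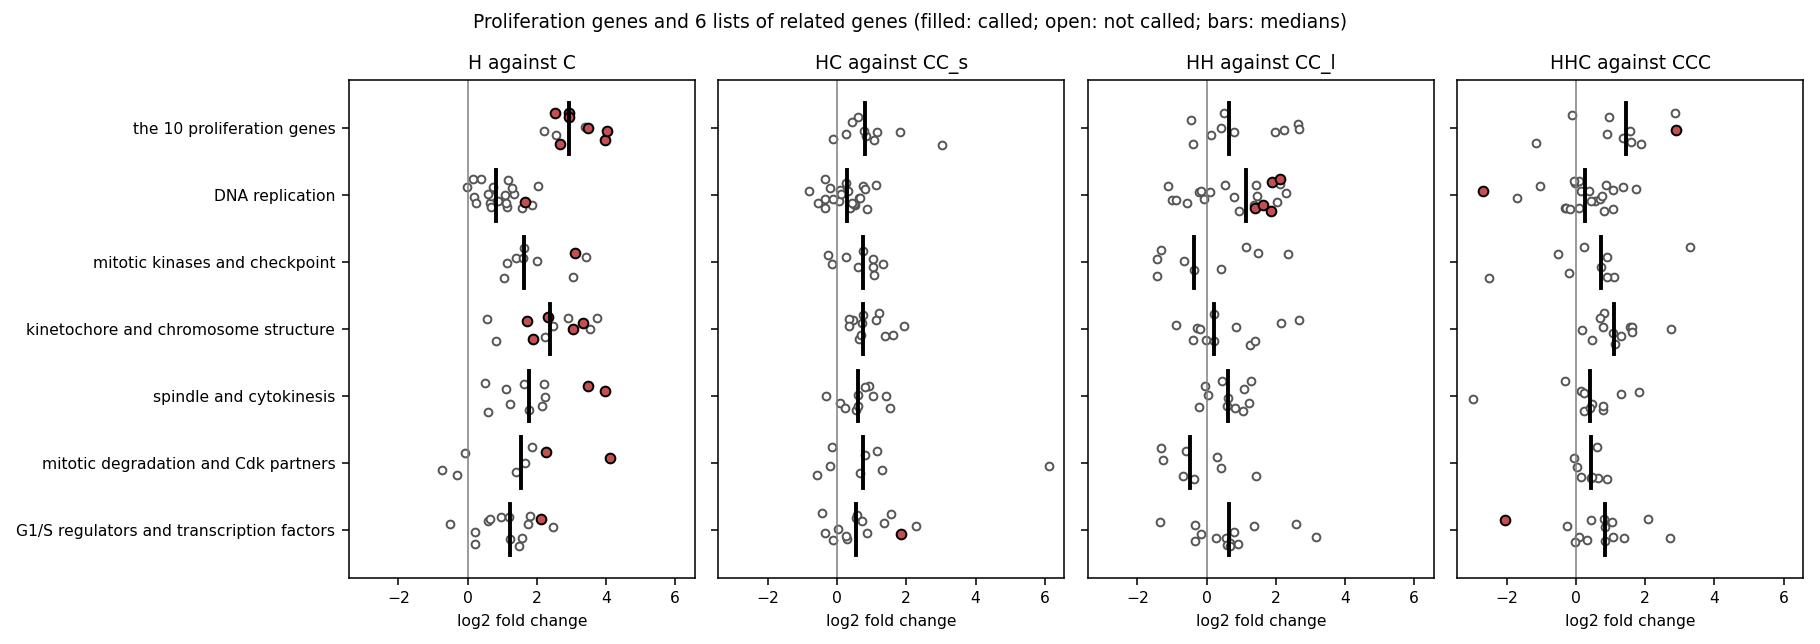
Log2 fold change (horizontal axis) of the 10 proliferation genes and of the 76 genes of 6 related lists in the 4 comparisons; each point is a gene, filled where called, bars are list medians, and the vertical scatter within a row has no meaning. The members' median was 2.93 in H; the HH panel includes CC_l replicate 1, without which the median of mitotic kinases and checkpoint was 2.69 in place of -0.37.

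The genes whose log2 CPM followed the mean standardized level of the members most closely over 20 libraries were Smc2 (Pearson's r = 0.926), Cenpf (0.921), Tpx2 (0.916), Ect2 (0.905) and Hmmr (0.904). All 5 belong to the lists of related genes, and they share libraries and depth with the members. Over the 18 libraries left without CC_l replicate 1 and HC replicate 3 the first 5 were different. They were Plk2 (0.962), Iqgap1 (0.956), Clic1 (0.955), Fxyd5 (0.946) and the chemokine gene Ccl2 (0.944), none of them in a list. Among the members themselves r with the mean of all 10, of which each is a part, ran over 20 libraries from 0.830 for Ccnb1 to 0.962 for Top2a.

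Some reads may have been shared with other genes. Exons of Ccna2 overlap those of Exosc9 on the opposite strand over 12.5% of their bases, and Exosc9 stood at 9.26 to 34.6 CPM, above Ccna2 in every library. Cdc20 overlaps Elovl1 (16.4 to 112.5 CPM) over 2.84% of its exon bases, and the strand setting of the counting is not given in the sources used here, so that reads from these regions cannot be told apart. Of the 50-base words of Ccnb1, 23.4% also occur in Ccnb1-ps, Gm12856 or Gm8416, and Ccnb1-ps stood at no more than 0.494 CPM. Levels of Ccna2, Cdc20 and Ccnb1 are uncertain to that extent. The values of the members were even numbers in 92.5% of nonzero counts, and how read pairs were counted is not given in the sources used here.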

How the data were processed

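TRAP–seq libraries of 20 mice in 8 groups were analysed, 3 mice per group in the short arm (library names with S086) and 2 in the long arm (S087). The authors trimmed reads with Trim Galore 0.6.6, aligned them to mm10 with HISAT2 2.2.1, assigned them to genes with featureCounts of Subread 2.0.1 and deposited them as raw counts per gene. The annotation, strand setting and handling of read pairs are not given in the sources used here. No libraries of the same group were found to be copies of one another, and pairs from different groups were not checked for this.

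From the deposited counts, CPM values and fold changes (log2) were derived in R 4.3.3 by edgeR 4.0.16 (filterByExpr, TMM, quasi-likelihood fit of all 20 libraries in 8 groups, prior of 5.29 degrees of freedom). The threshold for a call was that of the study's methods, p under 0.01 before adjustment with log2 fold change beyond 1 either way, and Benjamini-Hochberg adjusted p-values over 21464 genes are given beside them. Symbols, positions and exon overlaps came from GENCODE vM21, in which 98.2% of identifiers were found. The code was tested on simulated counts for H against C, with 200 genes changed by 3 on the log2 scale either way. By the rule for a call, edgeR recovered 127 of them (63.5%) and DESeq2 71%. Of the unchanged genes edgeR called 0.795% and DESeq2 1.77%. Comparisons between groups of 2 mice were not tested in this way. Alternatives were DESeq2 1.42.0, RLE normalization, no filter, only the compared groups, a replicate block, halved counts, and fits without single mice or both germ-cell libraries. Replicate numbers were not used to pair mice: correlations of same-numbered mice's deviations ran from -0.28 to 0.19.

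The 10 genes, the related lists and the marker lists were chosen with earlier results of these data known. Named genes are the 10 members, the 4 related genes with the highest absolute fold among those called in each comparison and the 5 genes most alike in level. Marker genes were to be the first 2 of each list. Only some of these are named, and no rule set which ones. Others named (such as Spc25, Ube2c, Aurkb, Ccne1, Rrm1, Ly6a, Pi16 and Mcm6 in H) were chosen after their values were seen.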

Additional observations from a re-analysis of the deposited data

How the results depend on the processing

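The log2 fold changes of the 10 genes in the 4 comparisons gave 258 values under alternatives that kept all mice or left out both germ-cell libraries, of which 221 kept direction and side of the threshold, 6 lost the call, 15 gained it and 16 changed sign. Of 200 values that left out 1 mouse, 158 kept both, 20 lost and 2 gained the call and 20 changed sign. Called members in H against C went from 7 to 1 with adjusted p and to between 2 and 6 without single mice, without C replicate 3 being the lowest. They were 10 with only the compared groups fitted, 9 without the filter on low counts and 8 with DESeq2. With RLE normalization they were 5, and with halved counts 6. In HC against CC_s they were 0 to 1 without single mice. In HH against CC_l, 0 became 2 without the filter on low counts and 4 with both germ-cell libraries left out. In HHC against CCC, 1 became 0 with adjusted p, 2 with DESeq2, 3 without the filter, 0 with only the compared groups fitted and 0 to 1 without single mice. The H minus HC difference passed in 1 member (Mki67) without the filter and in 0 otherwise. The cause was not tested, apart from the fewer mice or changed gene set that each setting brings.

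Signs changed for Ccnb1 in HHC (0.0108 with DESeq2, 0.0208 with RLE, 0.0348 with the compared groups only, 0.0190 with halved counts), for Ccna2 in HC (0.0337 without the filter) and for Bub1 in HH (-0.0102 with halved counts). Fitted with the replicate block, Ccna2 in HC was at 0.0558 and Ccnb2 and Cdc20 in HH at 0.24 and 0.37. The replicate block left 6 members called in H, and moved the members' median from 0.64 to 1.37 in HH (10 above 0) and from -0.53 to 0.40 for the HH minus HHC difference. With both germ-cell libraries left out, HC gave -0.76 for Mki67, -0.30 for Top2a, -0.76 for Ccnb2, -1.59 for Cdc20 and -0.84 for Rrm2, and HH gave 1.67 for Ccnb2 and 4.21 for Cdc20. Without single mice, HC ranges were -0.77 to 1.29 (Mki67), -0.31 to 1.66 (Top2a), -0.22 to 0.63 (Ccnb1), -0.78 to 2.16 (Ccnb2), -1.34 to 0.72 (Ccna2), -1.59 to 1.42 (Cdc20) and -0.85 to 1.53 (Rrm2). HH ranges were -0.43 to 3.16 (Ccnb1), -1.18 to 1.68 (Ccnb2), -0.34 to 3.03 (Birc5), -0.74 to 3.20 (Bub1) and -1.38 to 4.21 (Cdc20). HHC ranges were -1.65 to 2.26 (Mki67), -1.27 to 2.45 (Top2a) and -1.95 to 0.67 (Ccnb1). Depth limits Bub1 most, with 0 to 2 counts per mouse in CC_s, and groups of 2 mice limit the long arm.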
